A study of Mus musculus with 4 samples.

Results

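Feedback genes of the ERK kinase pathway were followed in subcutaneous white fat of mice given the compound BML-260 or its vehicle. They are 3 Sprouty genes (Spry1, Spry2 and Spry4), 3 SPRED genes (Spred1, Spred2 and Spred3) and 3 ETV genes (Etv1, Etv4 and Etv5). The 9 genes were taken by name from the 51912 genes of the deposited table, and each name matched 1 row. All mice were C57BL/6 animals at the age the labels write as 8-week. One group received DMSO, the vehicle, and the other BML-260, known for inhibiting the dual-specificity phosphatase DUSP22. The sources used here do not give dose, route, duration or sex. RNA sequencing gave 4 libraries, 2 per treatment, named by treatment and by the letter A or B. The design text mentions 8 mice, and which mice entered which library was not given, so the p-values below reflect the spread between libraries alone, which may be technical.

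ERK is the last kinase of the cascade that runs from growth factor receptors through RAS, RAF and MEK. Cells restrain it with proteins whose genes the pathway itself can switch on. Sprouty proteins act below receptor tyrosine kinases and dampen the activation of RAS and RAF. SPRED proteins carry neurofibromin, which turns RAS off, to the plasma membrane. ETV1, ETV4 and ETV5 form the PEA3 group of ETS transcription factors, whose transcription commonly follows signalling from fibroblast growth factor (FGF) receptors to ERK, so their transcripts are widely read as an output of the pathway. In fat, FGF and insulin receptors both feed into this cascade, in adipocytes and in their progenitors.

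The libraries held between 19999836 and 23726781 expected counts, and each level is in CPM, a count scaled to library depth after the libraries were scaled to each other. Adipocyte markers were present throughout, with Adipoq, which encodes adiponectin, between 1660 and 3020 CPM. The libraries also differed in other tissue. The 14 skeletal muscle markers summed to 408 and 11200 CPM in vehicle A and B, against 31200 and 48100 CPM in the BML-260 pair. The 8 B cell markers summed to 182 CPM in BML-260 A and to 1.80 to 3.01 CPM elsewhere. The 9 T and NK cell markers summed to 117 CPM in BML-260 A and to 8.59 to 25.8 CPM elsewhere. For the 7 macrophage markers the sum was 2160 CPM in BML-260 A, against 1450, 1670 and 1080 CPM in vehicle A, vehicle B and BML-260 B. In a bulk sample, fewer cells of a type and less RNA per cell cannot be told apart.

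Transcripts of the ETV factors Etv4 and Etv5 were higher in both BML-260 libraries than in both vehicle libraries, 5.09-fold for Etv4 and 1.54-fold for Etv5, while Etv1 had overlapping groups. Among the restraining genes, Spry4 was 1.27-fold higher without overlap, Spry1 was lower at a fold of 0.889 without overlap, and Spry2 and the 3 SPRED genes overlapped between treatments. None of the 9 passed an adjusted p of 0.05 in edgeR, whose quasi-likelihood p-values were adjusted by Benjamini and Hochberg's method over the 15643 genes with enough counts to be tested. That test called 1 gene of them, or 0.00639%. At an unadjusted p under 0.05 it counted 2 of the 9, Etv4 and Etv5, as higher (7.45% of all tested genes) and 0 as lower (3.61%). The groups did not overlap for 4 of the 9, against 44.3% of tested genes (22.9% higher and 21.5% lower), so that count is near the background. DESeq2 also called 0 of the 9 at an adjusted p of 0.05, against 2.6% of tested genes, with the same 2 at an unadjusted p under 0.05. All 9 passed the filter on low counts. Of the 9 estimates 7 lay above 0, against 52.5% of tested genes, and the 7 include Spred3 at 0.01. The count was 6 with limma-voom (8158 of 15643 tested genes) and with library totals (7006 of 15643). The median log2 fold change of the 9 was 0.13, beside 0.02 over all tested genes. With a library left out it ran from 0.06 (without BML-260 A) to 0.33 (without vehicle B or BML-260 B).

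**Figure D1:**
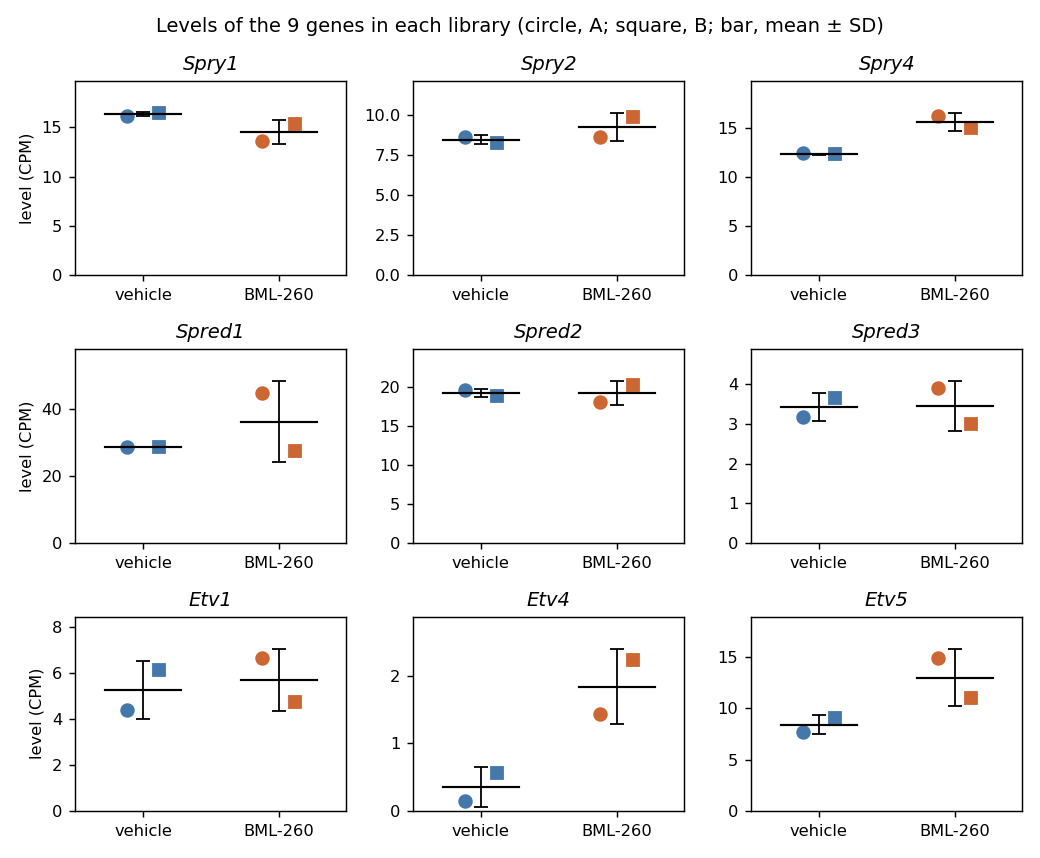
Level in CPM of each of the 9 genes in each library, with vehicle in blue and BML-260 in orange, circles for library A, squares for library B, and lines with bars for the mean and SD of 2 libraries. Etv4, Etv5 and Spry4 lie higher in both BML-260 libraries, and Spred1 is high in BML-260 A alone.

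Per length of transcript, all of these genes were modestly expressed. On the FPKM scale (fragments scaled to transcript length and library depth), averaged over the 4 libraries, Spry1 was the highest at 7.93, followed by Spred1 at 5.81, Spred2 at 5.42, Spry2 at 4.95, Spry4 at 3.25, Etv5 at 2.96, Spred3 at 1.51, Etv1 at 1.25 and Etv4 at 0.877. The ranges over libraries of Spry2 and Spry4 were apart, 4.61 to 5.39 against 2.85 to 3.79. All other neighbours in that order had overlapping ranges, for Etv5 and Spred3 through the 2.85 FPKM of Spred3 in vehicle A alone. Most of the order is thus not fixed by these libraries, and the ETV factors were in its lower part. Spry3, the remaining mouse Sprouty gene and not part of the group, had 2 to 8 reads per library and was not tested.

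Spry1 (ENSMUSG00000037211) lies on chromosome 3 at 37639947 to 37644598 of GRCm38, plus strand, and encodes a Sprouty inhibitor known for restraining receptor tyrosine kinase signals in development. Its level was 16.1 and 16.4 CPM in vehicle A and B, against 13.6 and 15.3 CPM in the BML-260 pair, so the BML-260 libraries were lower, by a small margin in B. The log2 fold change was -0.17 (SE 0.15, 95% interval -0.55 to 0.21, edgeR adjusted p = 0.705). An unclassified gene on the opposite strand, Gm42922, overlaps it and had 1.03 to 8.57 expected counts per library against 283 to 380 for Spry1. How far the 2 share reads was not tested.

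Spry2 (chromosome 14, 105891947 to 105896819, minus strand) encodes a Sprouty protein that binds the ubiquitin ligase CBL and the adaptor GRB2. It stood at 8.64 and 8.26 CPM with vehicle, against 8.62 and 9.84 CPM with BML-260. The value in BML-260 A lay between the vehicle values, and the log2 fold change was 0.13 (SE 0.20, 95% interval -0.37 to 0.62, edgeR adjusted p = 0.841).

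Spry4 (chromosome 18, 38586247 to 38601415, minus strand) is a Sprouty gene whose transcript commonly follows FGF receptor activity. It had 12.4 and 12.3 CPM in the vehicle libraries and 16.2 and 15.0 CPM in the BML-260 libraries, from 261 to 337 reads. Both BML-260 libraries were above both vehicle libraries, which differed little from each other. The log2 fold change was 0.34 (SE 0.15, 95% interval -0.05 to 0.73), with an unadjusted p of 0.0737 and an edgeR adjusted p of 0.483. The summed CPM of the 3 Sprouty genes was 37.2 and 37.0 with vehicle and 38.5 and 40.1 with BML-260.

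Spred1 (chromosome 2, 117121374 to 117182279, plus strand) encodes the SPRED protein whose loss causes Legius syndrome in people, through its partnership with neurofibromin. It stood at 28.6 and 28.7 CPM with vehicle, against 44.6 CPM in BML-260 A and only 27.5 CPM in B. A single library thus held the difference, with BML-260 B slightly below both vehicle libraries. The log2 fold change was 0.33 (SE 0.24, 95% interval -0.28 to 0.95, edgeR adjusted p = 0.643), and leaving out BML-260 A turned it to -0.07. Leaving out the B library instead gave 0.63 (unadjusted p of 0.00603, edgeR adjusted p = 0.134). BML-260 A also held the high lymphoid and macrophage markers, whose part in the Spred1 value was not tested.

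Spred2 (chromosome 11, 19924375 to 20024026, plus strand) encodes a broadly expressed SPRED protein and Spred3 (chromosome 7, 29158829 to 29170411, minus strand) one that lacks a working binding domain for the receptor KIT. Spred2 had 19.6 and 18.8 CPM with vehicle and 18.1 and 20.2 CPM with BML-260. Its log2 fold change was 0.00 with a 95% interval of -0.35 to 0.35, equal to folds of 0.783 to 1.27, so larger shifts lie outside the interval (edgeR adjusted p = 0.995). Spred3 had 3.18 and 3.67 CPM with vehicle and 3.90 and 3.01 CPM with BML-260, with the lowest and the highest value both in the BML-260 group. Its log2 fold change was 0.01 (SE 0.29, 95% interval -0.73 to 0.75, edgeR adjusted p = 0.994), from 66 to 85 reads per library. The gene Ggn overlaps Spred3 on the opposite strand and had 14 to 23 reads per library.

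**Figure D2:**
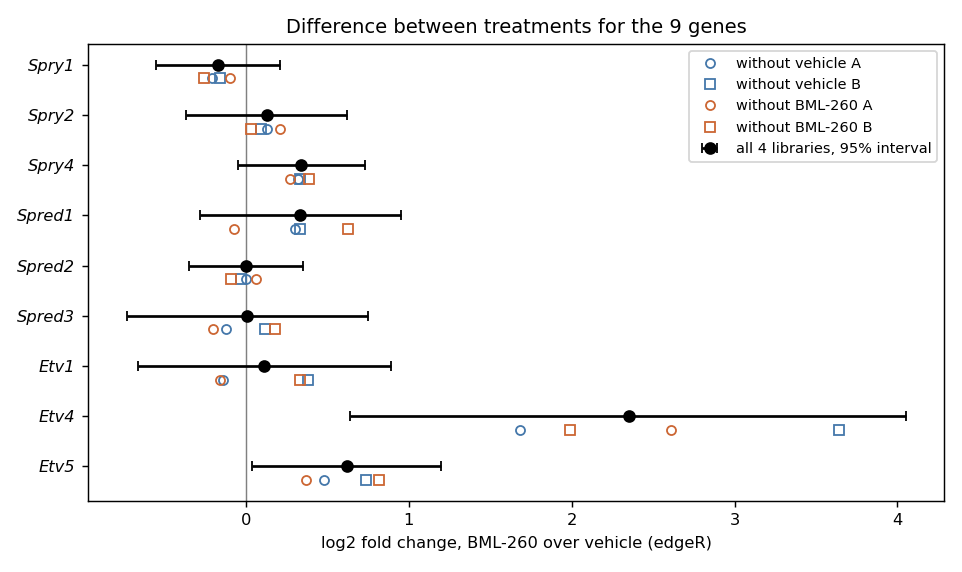
Log2 fold change of BML-260 over vehicle for each of the 9 genes from edgeR, with black points and bars for the estimate and 95% interval from all 4 libraries and open symbols for the estimate with 1 library left out. The intervals of Etv4 and Etv5 lie above 0, and the open symbols of Spred1, Spred2, Spred3 and Etv1 fall on both sides of 0.

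Etv1 (chromosome 12, 38779380 to 38870484, plus strand) encodes a PEA3 group factor, also known as ER81. It had 4.37 and 6.14 CPM with vehicle and 6.65 and 4.74 CPM with BML-260. The spread inside each group exceeded the difference between the groups, and the log2 fold change was 0.11 (SE 0.31, 95% interval -0.66 to 0.89, edgeR adjusted p = 0.911). Leaving out vehicle A gave -0.14, and leaving out BML-260 A gave -0.16.

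Etv5 (chromosome 16, 22381309 to 22439719, minus strand) encodes the PEA3 group factor known as ERM. Its expected counts were 163 and 210 with vehicle and 310 and 241 with BML-260, or 7.74, 9.08, 14.9 and 11 CPM in that order. Both BML-260 libraries were above both vehicle libraries, with the highest value in BML-260 A. The log2 fold change was 0.62 (SE 0.23, 95% interval 0.04 to 1.2), with an unadjusted p of 0.0401 and an edgeR adjusted p of 0.435. The T and NK cell markers summed to 117 CPM in BML-260 A, 15.1 CPM in BML-260 B and 25.8 CPM in vehicle B, and their part in the Etv5 value was not tested. Leaving out BML-260 A gave 0.37 (unadjusted p of 0.160) and leaving out vehicle A gave 0.48 (0.187). Leaving out vehicle B gave 0.74 (0.0687), and leaving out BML-260 B gave 0.82 (0.0154).

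Etv4 (chromosome 11, 101769742 to 101785371, minus strand) encodes PEA3 itself, for which the group is named. It had 3 and 13 expected counts in vehicle A and B, then 30 and 49 in the BML-260 pair, with exact 95% Poisson intervals of 0.619 to 8.77, 6.92 to 22.2, 20.2 to 42.8 and 36.3 to 64.8, which cover counting error only. In CPM these were 0.142, 0.562, 1.44 and 2.23. The BML-260 libraries were both higher, and vehicle B was itself 3.95-fold above vehicle A (counting interval 1.08 to 21.6). Over both libraries of each treatment, the ratio of 79 reads to 16 reads was 5.11 after scaling, with a counting interval of 2.96 to 9.37. The fitted log2 fold change was 2.35 (SE 0.67, 95% interval 0.64 to 4.05), with an unadjusted p of 0.0161 and an edgeR adjusted p of 0.373. Leaving out vehicle A gave 1.68 (unadjusted p of 0.0532) and leaving out vehicle B gave 3.64 (0.00632). Leaving out BML-260 A gave 2.61 (0.0249), and leaving out BML-260 B gave 1.99 (0.076).

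The 4 libraries stood in the same order for Etv4 as for skeletal muscle content. Ckm, the muscle creatine kinase gene, had 42.6, 1480, 4020 and 6300 CPM from vehicle A to BML-260 B, and Acta1, skeletal muscle actin, had 68.9, 2020, 5200 and 9200 CPM. All 14 muscle markers were tested and all 14 had estimates above 0, with a median log2 fold change of 2.72. The part of muscle RNA in the Etv4 value was not tested. The thermogenic adipocyte gene Ucp1, which was 29.2-fold higher, stood in the same order of libraries, at 7.88, 9.68, 251 and 263 CPM. The Ucp1 values were close within each treatment. In the vehicle pair, Etv4 had 0.142 and 0.562 CPM and Ckm 42.6 and 1480 CPM, so Ucp1 shared the order but not the step from vehicle A to B.

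**Figure D3:**
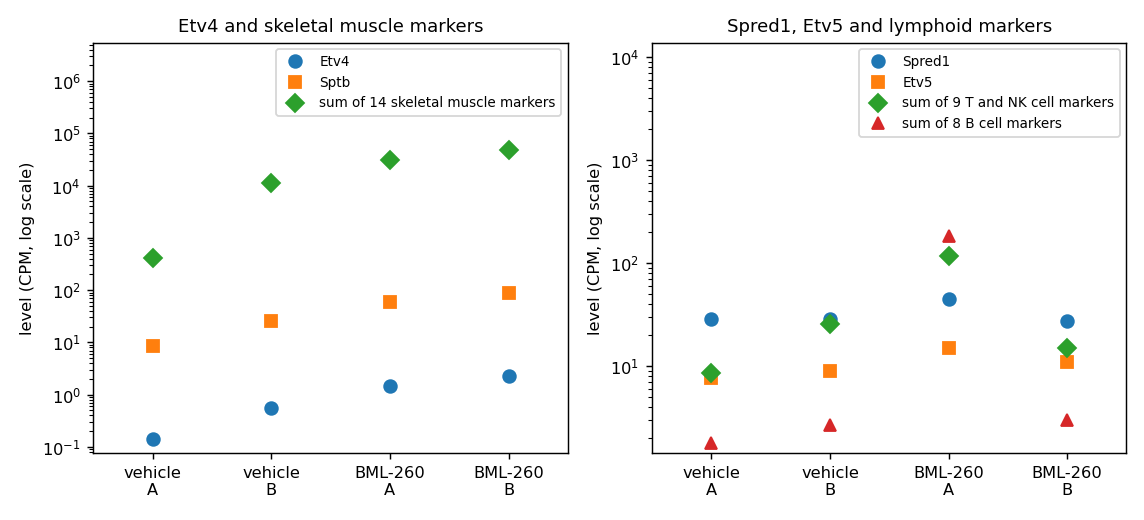
Levels in CPM on a log axis in each library, with Etv4, the gene Sptb and the sum of 14 skeletal muscle markers on the left and Spred1, Etv5 and the sums of 9 T and NK cell and 8 B cell markers on the right. Etv4 and the muscle sum stand in 1 order from vehicle A to BML-260 B. Sptb was picked for its likeness to Etv4, so its order was set by that choice. Spred1, Etv5 and both lymphoid sums are highest in BML-260 A.

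The genes with the most similar profiles were sought among 13124 other genes whose log2 CPM averaged at least 1, by the root mean square difference of centred log2 CPM over the 4 libraries, for the gene with the smallest p in each family. A small prior count was added before the log, which narrows the profile of a gene with few reads, such as Etv4. On that narrowed profile the nearest genes to Etv4 were Stab2 (0.047), Sptb (0.048) and Mapt (0.066). Stab2 had 0.52, 1.64, 4.24 and 6.42 CPM from vehicle A to BML-260 B. Sptb, the gene of erythroid and muscle beta spectrin, had 8.4, 25.9, 58.9 and 88.9 CPM in that order. Being picked for likeness to Etv4, these genes share its order of libraries by that choice. For Spred1 they were Pdia5 (0.0046), Relb (0.018), an NF-kappaB subunit gene, and Sp110 (0.018). Relb had 17.2, 17.6, 27.7 and 17.0 CPM, with its high value in BML-260 A as for Spred1. For Spry4 they were Tmc6 (0.011), Csgalnact2 (0.013) and Cdc14b (0.014). With 4 libraries such likeness is a description. Within the group, Spry2 and Spred2 were closest to each other (0.066) and Etv4 stood at least 1.0 from every other gene, so the 9 did not follow 1 shared profile.

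The promoter windows of Etv5, Etv1 and Spred2 are shown because they hold the letters GGAAGT, a core bound by ETS factors of the PEA3 group, on either strand. Each runs from 250 bases before to 50 bases after a transcription start and comes from RefSeq on GRCm38.p6. The windows are chr16:22438319-22438618 on the minus strand for Etv5, chr12:38779832-38780131 on the plus strand for Etv1 and chr11:19924192-19924491 on the plus strand for Spred2. Capitals mark GGAAGT or its reverse complement ACTTCC.
Etv5: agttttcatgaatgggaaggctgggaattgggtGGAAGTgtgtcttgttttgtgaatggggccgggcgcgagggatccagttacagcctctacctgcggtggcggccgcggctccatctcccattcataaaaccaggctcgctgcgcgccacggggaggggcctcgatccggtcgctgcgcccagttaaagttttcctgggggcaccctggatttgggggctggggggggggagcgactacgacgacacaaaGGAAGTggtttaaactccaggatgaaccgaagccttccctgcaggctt
Etv1: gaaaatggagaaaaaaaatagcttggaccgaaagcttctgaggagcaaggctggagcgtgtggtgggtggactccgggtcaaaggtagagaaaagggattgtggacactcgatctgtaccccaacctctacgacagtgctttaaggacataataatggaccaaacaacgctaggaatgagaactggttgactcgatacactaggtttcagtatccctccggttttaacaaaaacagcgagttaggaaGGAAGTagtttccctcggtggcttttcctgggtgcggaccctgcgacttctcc
Spred2: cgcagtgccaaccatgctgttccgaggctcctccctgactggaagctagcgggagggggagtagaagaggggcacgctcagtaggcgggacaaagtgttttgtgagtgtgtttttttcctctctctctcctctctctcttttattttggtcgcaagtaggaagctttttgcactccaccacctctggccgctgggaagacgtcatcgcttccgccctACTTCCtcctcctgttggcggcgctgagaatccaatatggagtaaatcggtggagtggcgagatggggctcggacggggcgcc

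RefSeq windows were matched by symbol for 7 of the 9 genes and gave 9 windows. Windows on chromosome 18, where Spry4 lies, were left out for the 9 genes but kept in the background. Only the 3 shown hold GGAAGT, against 23.8% of the 32851 windows of the same length. The Etv5 window has it 217 bases before and 2 bases after the start, the Etv1 window 3 bases before, and the Spred2 window has ACTTCC 33 bases before. The full cyclic AMP response element TGACGTCA was found in 0 of the 9 windows, against 1.79% of all windows, and the AP-1 letters TGANTCA in 0, against 7.81%. The Spred2 window has the shorter core of that element, TGACG, on its minus strand, and 20.8% of all windows hold one. Etv5, with an unadjusted p under 0.05, and Spred2 and Etv1, with overlapping groups, thus share these letters, and a match is a description of the sequence only.

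Upstream of the feedback genes stand the FGF ligands and receptors. Of their 13 genes on the list, 11 were tested, 0 were called by edgeR after adjustment, and an unadjusted p under 0.05 was reached by 3 that were lower and 0 that were higher, with a median log2 fold change of -0.28. Klb, the co-receptor through which FGF21 acts on fat, had 104 and 105 CPM with vehicle and 45.1 and 56.9 CPM with BML-260, a log2 difference of -1.04 (SE 0.15, edgeR adjusted p = 0.249), and DESeq2 called it (adjusted p = 1.44e-05). Fgfr1, the main FGF receptor of adipocytes, had 298 and 307 CPM against 223 and 235 CPM, with -0.40 (SE 0.14, edgeR adjusted p = 0.423). Fgfr2 and Fgfr3 had -0.59 (SE 0.23) and -0.57 (SE 0.28), with no overlap of the groups for either. Fgfr4, which had too few reads to be tested, lay the opposite way without overlap, at 2 and 2 reads with vehicle and 11 and 9 reads with BML-260. Adipocyte markers were also lower in 7 of 8 cases by their estimates, with a list median of -0.28, and their part in the FGF receptor values was not tested. Leaving out vehicle A gave a list median of -0.02, and leaving out vehicle B gave -0.38. The filter on low counts was rerun for these fits, so each of these medians covers 12 tested genes. The 3 lower genes became 1 with the library letter as a replicate block. Over all 15643 tested genes the lower count went from 564 to 424 with that block. Both counts also moved with a library left out.

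Of 25 other growth factor and receptor tyrosine kinase genes, 23 were tested, 0 were called, and 1 higher and 1 lower gene had an unadjusted p under 0.05, with a median of -0.13. The gene higher was Egf, epidermal growth factor, at 1.85, 5.32, 9.34 and 12.2 CPM from vehicle A to BML-260 B, the same order of libraries as for muscle markers. The gene lower was Pdgfrb, a receptor of mural and stromal cells, at 83.1 and 78.8 CPM with vehicle and 64.3 and 64.7 CPM with BML-260. Hbegf, a ligand of the EGF receptor, had a log2 difference of 0.70 (SE 0.30) and Pdgfb, a ligand of Pdgfrb, -0.38 (SE 0.15).

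The kinase cascade itself had a median near that of all genes. All 23 genes from adaptors to ERK and its RSK kinases were tested, with a median of 0.07, 0 called by edgeR after adjustment, and an unadjusted p under 0.05 for 3 higher and 0 lower genes. Ksr1, a scaffold that joins RAF, MEK and ERK, had 29.5 and 42.3 CPM with vehicle and 76.6 and 84.5 CPM with BML-260, a log2 difference of 1.17 (SE 0.20, edgeR adjusted p = 0.285), and DESeq2 called it (adjusted p = 2.76e-04). Rps6ka2, an RSK kinase gene, had 8.78, 15.8, 26.3 and 41.1 CPM, with 1.46 (SE 0.35, edgeR adjusted p = 0.329; DESeq2 adjusted p = 0.00857). Ksr1 and Rps6ka2 both stood in the order of the muscle markers, whose part was not tested. Sos2, a RAS activator, had 0.37 (SE 0.13) and Nras 0.28 (SE 0.15).

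Partners and regulators of the 9 genes' products had no gene at an unadjusted p under 0.05 among 14 tested, by edgeR, with 0 called after adjustment and also 0 by DESeq2, and a median of 0.09. The smallest p values belonged to Atxn1, a partner of the ETV repressor CIC, with 0.36 (SE 0.19), and to the kinase gene Dyrk1a with 0.22 (SE 0.11). Cbl and the RAS inactivator Rasa3 had 0.21 (SE 0.20) and -0.16 (SE 0.13).

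Other genes of the ERK response had the highest median of these lists. All 19 were tested, with 14 estimates above 0, a median of 0.56, 0 called by edgeR after adjustment, and an unadjusted p under 0.05 for 6 higher genes and 1 lower gene. Dusp6, the ERK-specific phosphatase that is the classic feedback partner of Sprouty and ETV genes, had 19.5 and 22.4 CPM with vehicle and 31.8 and 29.9 CPM with BML-260, a log2 difference of 0.56 (SE 0.14, edgeR adjusted p = 0.33). Ccnd1, cyclin D1, had 24.9 and 24.3 CPM against 50.5 and 37.0 CPM, with 0.83 (SE 0.18, edgeR adjusted p = 0.309), and DESeq2 called it (adjusted p = 0.0214). Errfi1, a feedback inhibitor of the EGF receptor, had 0.69 (SE 0.20), and the immediate early gene Fos had 1.47 (SE 0.41). Fos was 12.6 CPM in BML-260 A, against 5.88 CPM in B, and Ccnd1 was also higher in A, the library with high lymphoid and macrophage markers. Leaving out BML-260 A gave a list median of 0.31, and leaving out BML-260 B gave 0.77. With vehicle A left out the median was 0.54, and with vehicle B left out 0.57. How many genes of the list passed under that p moved with the library left out, as did the count over all tested genes.

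Among 19 other ETS factors, 15 were tested, 0 were called, and an unadjusted p under 0.05 was reached by 1 higher and 0 lower genes, with a median of 0.11. That gene was Etv3, a repressor of the ETS family, at 56.9 and 46.6 CPM with vehicle and 79.4 and 68.2 CPM with BML-260. Ets1, a lymphoid and endothelial factor, had 0.51 (SE 0.23), with 86.2 CPM in BML-260 A and 47.1 to 55.5 CPM elsewhere. Fli1 and Etv6 had 0.37 (SE 0.18) and 0.31 (SE 0.13), with both BML-260 libraries above both vehicle libraries. Leaving out BML-260 A gave a list median of 0.03, and leaving out BML-260 B gave 0.22. Leaving out vehicle A gave 0.12, and leaving out vehicle B gave 0.19. Whether any gene of the list passed under that p depended on the library left out, and the count over all tested genes moved as well.

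**Figure D4:**
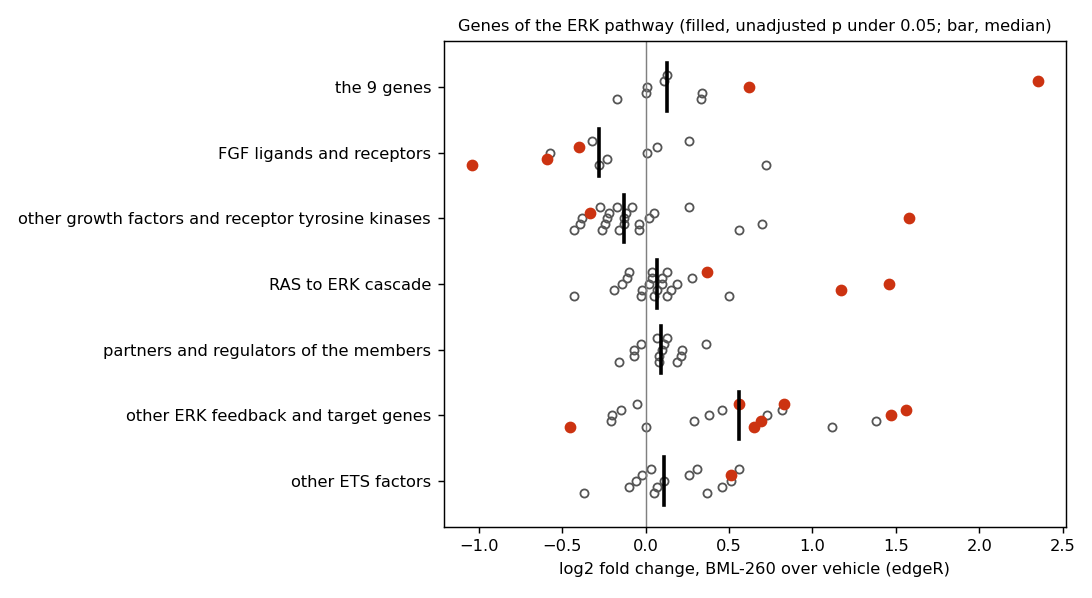
Log2 fold change of BML-260 over vehicle for each tested gene of the 9 and of 6 pathway lists, with filled red points at an unadjusted edgeR p under 0.05, open points otherwise, and a black bar at each median. The medians run from -0.28 for FGF ligands and receptors to 0.56 for other ERK feedback and target genes.

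The unit moved the difference most for Spred3 and Etv4, and also for Etv1. The expected count divided by FPKM and by the library total gives the transcript length that the authors' FPKM implies, and over 14277 tested genes the highest over the lowest library had a median ratio of 1.11. For Spred3 that length was 1152 bases in vehicle A and 3091 to 3531 bases elsewhere, a ratio of 3.06 that 0.981% of genes exceeded. Its annotated transcripts run from 374 to 4056 bases. Spred3 thus stood at 2.85 FPKM in vehicle A and at 1.14, 1.15 and 0.90 FPKM in vehicle B and BML-260 A and B, although its CPM in vehicle A lay inside the range of the others. On log2(FPKM + 0.1) its difference was -0.78. For Etv4 the implied length was 533 and 874 bases with vehicle, from only 3 and 13 expected counts. With BML-260 it was 1455 and 1327 bases, and the ratio for Etv4 was 2.73. Its FPKM of 0.276, 0.646, 1.03 and 1.56 gave 1.37 on the log2(FPKM + 0.1) scale, below the 2.35 from counts and in the same direction. For Etv1 it was 5026 and 4960 bases with vehicle and 4140 and 3730 bases with BML-260, a ratio of 1.35, and its difference was 0.38 on log2(FPKM + 0.1) beside 0.11 from counts. The remaining genes had ratios from 1.07 for Etv5 to 1.1 for Spry1, Spry4 and Spred2, with Spred1 slightly above.

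**Figure D5:**
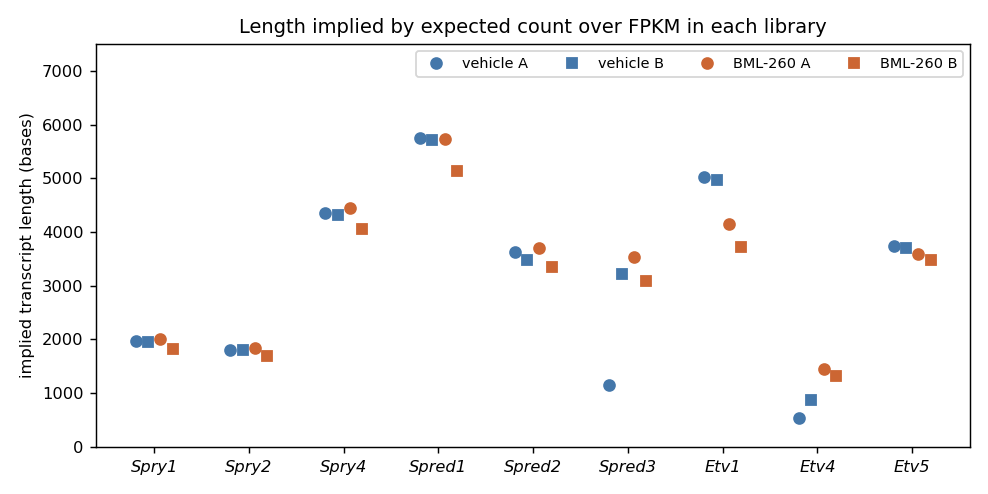
Transcript length in bases implied by expected count over FPKM for each of the 9 genes, with vehicle in blue, BML-260 in orange, circles for library A and squares for library B. Spred3 in vehicle A, at 1152 bases, stands below its other libraries. Etv4 is shorter in both vehicle libraries, where it had only 3 and 13 expected counts.

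The authors' deposited table holds a comparison of its own for these genes. In the authors' deposited table the log2 fold change was 0.76 for Etv4 (p = 0.0156, adjusted p = 0.284) and 0.50 for Etv5 (p = 0.0508, adjusted p = 0.505). In the authors' deposited table the other 7 genes had log2 fold changes from -0.16 for Spry1 to 0.29 for Spry4, with adjusted p from 0.823 to 1.0. Etv4 was thus placed lower there than by the edgeR fit to the counts, in the same direction, and none of the 9 passed 0.05 in either. The DESeq2 fit made here gave 2.36 for Etv4. How the deposited fold changes were estimated is not given, so they may be a different measure from those of the fits here.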

How the data were processed

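Total RNA of subcutaneous white fat was isolated with TRIzol and made into Illumina libraries, per the labels' protocols. In 1 table the authors deposited expected counts, which are estimated read numbers per gene, for each of 4 libraries. The same deposited table gives FPKM per library, scaled by the authors to transcript length and depth. Per the file headers, it also holds group means, their log2 values, and the authors' log2 fold change, p-value and adjusted p. Per the submitters' processing notes, the build was GRCm38.p5, and RSEM 1.2.31, HISAT2 2.1.0 and DESeq2 1.10.1 are named without a role. The annotation and whether strand was used are not given in the sources used here; overlapping genes may share reads.

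Expected counts were rounded. After filterByExpr 15643 of 51912 genes were tested with edgeR 4.0.16 quasi-likelihood (R 4.3.3, two-sided, TMM scaling, treatment alone in the model, Benjamini-Hochberg at 0.05), with 2 residual and 3.28 prior degrees of freedom. CPM are TMM-scaled. SE is the log2 fold change over the square root of F, and 95% intervals use the same degrees of freedom. An exact permutation of 2 against 2 cannot go below p = 0.333. Coordinates are GENCODE vM21. Named were the 9 genes, up to 4 genes of each pathway list with the smallest p, 2 markers of a cell type list, the 3 nearest profiles per family, and Ucp1 and Dusp22. Dusp22 had a log2 fold change of -0.01. The members and lists were chosen with earlier results of these data known. The macrophage list had a median log2 fold change of 0.10. Cell type lists not described above had median log2 fold changes of -0.41 (endothelium), -0.41 (mural), 0.08 (stromal), -0.18 (mast cells), -0.87 (epithelium, 1 of 8 tested), -1.05 (Schwann cells) and 2.81 (thermogenic adipocytes). The fit was tested on simulated data. Alternatives were DESeq2 1.42.0, limma 3.58.1 voom, other scaling, other filters, the library letter as a term, each library left out, and log2(FPKM + 0.1) or + 1.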

Additional observations from a re-analysis of the deposited data

How the results depend on the processing

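None of the 9 genes was called under any of the 11 alternatives with a test, and Spry1, Spry2, Spry4, Etv4 and Etv5 kept their direction under all 13 alternatives. At an unadjusted p under 0.05, edgeR counted 1 of the 9 (Etv4) with library totals and with the replicate block. Over all 15643 tested genes it counted 926 higher and 893 lower with library totals, and 1044 and 424 with the block. Which of the 9 passed also changed with the library left out, as did the count over all genes. The count over all genes moved from 1 to 407 with DESeq2, 651 without the filter on low counts and 0 with the replicate block (library letter), and ran from 0 (without vehicle A) to 309 (without vehicle B), with 5 without BML-260 B; the cause was not tested. Pathway list genes called, computed under alternatives added after the data were seen, moved from 0 to 4 with DESeq2 (Klb, Ksr1, Rps6ka2 and Ccnd1), to 6 without the filter (also Fos and Egf), and ran from 0 to 1 with a library left out (Ksr1 without vehicle B). Reversed were Spred1 (-0.07 to 0.63 over leave-outs), Etv1 (-0.16 to 0.38) and Spred3 (-0.20 to 0.18 over leave-outs, -0.03 with library totals, -0.01 with at least 1 CPM in 2 libraries, and -0.78 and -0.51 on log2(FPKM + 0.1) and + 1); their main intervals span 0. Spred2, at 0.00, lay between -0.09 and 0.06 on both sides of 0. The labels do not say whether libraries of the same letter share more than the letter. Deviations of same-lettered libraries correlated at -0.0593 over genes, which cannot decide it with 2 libraries per treatment. With the letter as a block Etv4 had 2.5 and Etv5 0.61. With a library left out, the lone one of its group is assumed to vary like the others. Etv4 rests on 3 to 49 reads per library, which limits its precision.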
